A study of Mus musculus with 6 samples.

Results

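The immunoglobulin kappa variable segments, named Igkv, are the gene pieces from which mouse B cells build the variable domain of the kappa light chain. They were taken as every row of the deposited expression table whose symbol begins with Igkv, which gave 133 of 27761 rows. In the GENCODE M21 annotation (GRCm38) 99 of them are variable genes and 34 are variable pseudogenes, all with the same coordinates as in the table. They lie on chromosome 6 between 67555497 and 70704177, a stretch of 3149 kb, with 57 on the plus and 76 on the minus strand. By the number between the prefix and the hyphen they fall into 20 subgroups of related sequence.

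A developing B cell joins 1 Igkv segment to a short Igkj segment next to the constant gene Igkc, by the RAG1 and RAG2 recombinase. Recombination can delete or invert the DNA in between, and it can be repeated on the same chromosome with a more distant segment. A joined segment is transcribed from its own promoter together with Igkc under strong enhancers, so the FPKM of a segment in a population mixes the number of cells that joined it with the RNA each cell makes. Plasma cells make far more light chain RNA per cell than other B-lineage cells.

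The RNA came from mouse bone marrow cells carrying B220, the form of CD45 found on B-lineage cells and also on plasmacytoid dendritic cells. There were 3 libraries of genotype WT and 3 of genotype PELI2 knockout, titled PELI2-CKO, with no other allele, agent, age, strain or Cre driver named in the labels. Peli2 encodes a Pellino protein, an E3 ligase that attaches ubiquitin downstream of Toll-like receptors. Peli2 was at 2.03, 2.54 and 1.99 FPKM in WT and at 3.07, 2.70 and 2.47 in the libraries titled PELI2-CKO, so its RNA was not lower under that label (limma adjusted p = 0.293). A gene-level value does not show a deletion of single exons, and every direction given here is that of the label. Whether replicates came from separate animals is not stated, so p-values measure only the spread between these libraries, which may be technical.

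Depth was 16600000 to 18100000 reads per library, of which 20421 to 46429 fell on Igkv rows. FPKM is a read count scaled by transcript length and library size, so levels of different segments can be compared per length. Cd79a and Cd79b, the signalling chains of the B cell receptor and defining markers of the B lineage, stood at 583 to 724 and 428 to 551 FPKM in WT and at 488 to 516 and 360 to 392 in PELI2-CKO without overlap (limma adjusted p = 0.189 for each). Pax5 and Ebf1, transcription factors of the B lineage, stood at 110 ± 12.2 and 42.3 ± 4.38 FPKM in WT and at 84.1 ± 3.53 and 30.8 ± 0.825 in PELI2-CKO (SD, n = 3 each), also without overlap. Not every B-lineage marker separated the genotypes. Ptprc, which encodes CD45, was at 40.1, 45.1 and 42.4 FPKM in WT and 41.9, 42.3 and 44.2 in PELI2-CKO. Ms4a1, also of the B lineage, was at 41.2 to 52.0 FPKM in WT and 38.8 to 41.4 in PELI2-CKO, with overlap. Markers of other cells were present as well: 9 of 9 granulocyte genes had a higher mean FPKM in PELI2-CKO (sums 7106 to 9902 and 11379 to 13305 FPKM), as did 7 of 7 erythroid genes (9032 to 13204 and 13729 to 17624) and 5 of 5 genes of plasmacytoid dendritic cells (447 to 479 and 529 to 633). Their part in the results was not tested. In bulk RNA, fewer cells of a type and less RNA per cell cannot be told apart.

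Because Igkv segments are copies of each other, the 50-base single-end reads do not always identify 1 segment. Of the 105 segments tested, 23 had no 50-base stretch in common with another annotated gene, 18 had under 50% of their stretches to themselves, and the median was 77.6%. Values of close relatives are therefore uncertain to the extent that the counting split shared reads. The transcript of Igkv3-10, the 1 segment that passed the test, is shown over its last 300 bases from the GENCODE M21 transcripts (GRCm38, chromosome 6, plus strand), with capitals for the 63 bases that lie in no 50-base stretch shared with another gene.

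Igkv3-10: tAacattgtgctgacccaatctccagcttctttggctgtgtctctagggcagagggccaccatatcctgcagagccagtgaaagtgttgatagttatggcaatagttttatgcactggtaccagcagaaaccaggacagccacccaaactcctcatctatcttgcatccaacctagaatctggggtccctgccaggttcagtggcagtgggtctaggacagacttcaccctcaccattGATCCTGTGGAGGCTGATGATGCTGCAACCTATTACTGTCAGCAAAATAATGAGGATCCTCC

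The last 90 bases of its transcript and of 5 relatives in subgroup 3 are set below each other because these 6 had the highest mean FPKM of the subgroup. This end codes for the conserved cysteine and the start of the third complementarity-determining region. Capitals mark bases unlike Igkv3-10.

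Igkv3-10: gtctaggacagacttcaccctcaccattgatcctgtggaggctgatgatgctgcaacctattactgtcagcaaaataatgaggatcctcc
Igkv3-5: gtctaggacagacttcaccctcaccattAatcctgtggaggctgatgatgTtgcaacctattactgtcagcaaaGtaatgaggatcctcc
Igkv3-4: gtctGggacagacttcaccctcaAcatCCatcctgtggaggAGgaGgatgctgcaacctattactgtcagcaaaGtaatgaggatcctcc
Igkv3-2: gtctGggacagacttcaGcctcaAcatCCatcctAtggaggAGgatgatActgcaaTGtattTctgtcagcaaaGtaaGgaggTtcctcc
Igkv3-12: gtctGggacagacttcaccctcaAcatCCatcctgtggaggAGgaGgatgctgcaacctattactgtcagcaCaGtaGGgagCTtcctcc
Igkv3-7: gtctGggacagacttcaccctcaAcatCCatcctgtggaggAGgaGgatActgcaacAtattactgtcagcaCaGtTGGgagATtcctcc

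Igkv3-5 differed from Igkv3-10 at 3 of the 90 bases, Igkv3-4 at 8, Igkv3-12 at 13, Igkv3-2 at 15 and Igkv3-7 at 16. Over the whole transcript Igkv3-5 was 92.4% identical to Igkv3-10, and the longest run that the transcripts share was 159 bases. Of the 50-base stretches of Igkv3-10, 46.5% were its own and 40.3% occurred in Igkv3-5.

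Igkv4-63 and Igkv4-62 are neighbours in subgroup 4 with low values in each WT library, and Igkv4-61 lies next to them. Capitals mark bases unlike Igkv4-63, and 15 and 16 of the 90 bases differed.

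Igkv4-63: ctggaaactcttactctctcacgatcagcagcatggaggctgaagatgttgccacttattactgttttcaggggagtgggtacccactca
Igkv4-62: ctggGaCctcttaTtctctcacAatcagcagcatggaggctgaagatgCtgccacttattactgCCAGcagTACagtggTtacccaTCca
Igkv4-61: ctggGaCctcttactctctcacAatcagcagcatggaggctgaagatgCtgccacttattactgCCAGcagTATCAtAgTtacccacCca

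In subgroup 10, the segments Igkv10-94 and Igkv10-95 are near copies that did not follow each other in level. Capitals mark bases unlike Igkv10-94, which are 12 in Igkv10-96 and 1 in Igkv10-95.

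Igkv10-94: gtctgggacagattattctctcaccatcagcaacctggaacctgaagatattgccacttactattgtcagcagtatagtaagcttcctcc
Igkv10-96: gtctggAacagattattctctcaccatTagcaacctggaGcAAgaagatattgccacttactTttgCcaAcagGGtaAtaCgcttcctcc
Igkv10-95: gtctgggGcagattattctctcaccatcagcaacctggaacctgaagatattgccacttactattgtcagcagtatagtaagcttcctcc

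Igkv15-103 is shown because it held the largest share of the summed Igkv FPKM in 1 library, 7.88% in PELI2-CKO replicate 3. All of its 50-base stretches are its own, so no 50-base read of its transcript matches another annotated gene exactly, and it carries no capitals.

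Igkv15-103: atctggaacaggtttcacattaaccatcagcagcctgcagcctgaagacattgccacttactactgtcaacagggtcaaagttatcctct

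Before the groups were compared, the libraries were compared with each other, and 2 stood apart. PELI2-CKO replicates 1 and 2 had nearly the same makeup of segments. Their counts over tested Igkv rows differed by a chi-square of 2.95 per degree of freedom, against 15.6 to 53.0 in the other 14 pairs of libraries. The share of Igkv FPKM that would have to move to turn one into the other was 4.49%, against 13.6% to 21.5%, and the r of log2(FPKM + 1) across segments was 0.992, against 0.903 to 0.947 (a description over 105 related segments). The heavy chain segments (Ighv) showed the same, with 2.47 per degree of freedom against 16.3 to 44.6. Over genes outside the antigen receptors the pair stood less apart, at 3.21 against 4.22 to 24.3. The differences within the pair exceed sampling noise. Values per degree of freedom also grow with read counts, so the 2.95 and 2.47 cannot be set against the 3.21 outside the antigen receptors. Whether the pair are separate samples is not stated in the labels and was not tested. Both libraries were kept. With the pair averaged into 1, values are also given for the Igkv sum, the counts over all tested segments and Igkv3-10. The same is done for the share of the run nearest Igkc and the number of subgroups without overlap.

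**Figure D1:**
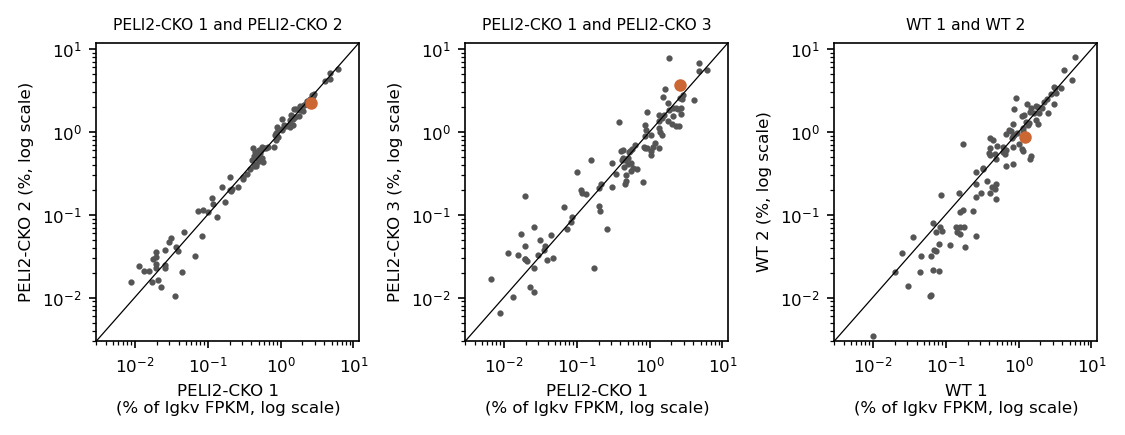
Each point is 1 of the 105 tested Igkv segments, placed by its percent of the summed Igkv FPKM in 1 library (x axis) and in another (y axis), both on log scales, with the line of equality; Igkv3-10 is the orange point. Points of PELI2-CKO replicates 1 and 2 lie close to the line (r = 0.992), while PELI2-CKO replicates 1 and 3 (r = 0.944) and WT replicates 1 and 2 (r = 0.947) scatter more widely.

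PELI2-CKO replicate 1 was the highest of the 6 libraries for 47 of the 105 tested segments, replicate 2 for 9 and replicate 3 for 7. In WT the highest library was replicate 1 for 17 segments, replicate 2 for 14 and replicate 3 for 11. PELI2-CKO replicate 3 stood under 0.5 times the mean of replicates 1 and 2 for 30 segments. The PELI2-CKO group thus held a similar pair and 1 library of different makeup.

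The first comparison was of the amount of kappa variable RNA. The 133 rows summed to 3139, 4901 and 4441 FPKM in WT and to 7019, 6390 and 4700 in PELI2-CKO. The means were 4160 ± 914 and 6036 ± 1200 FPKM (SD, n = 3 each), a ratio of 1.45, and the groups overlapped because PELI2-CKO replicate 3 lay between WT replicates 2 and 3. With replicates 1 and 2 averaged into 1 the ratio was 1.37. Igkc, the constant gene on the same transcripts, stood at 3885, 5541 and 5271 FPKM in WT and at 8498, 7676 and 5540 in PELI2-CKO, in the same order of libraries within each genotype. The ratio of Igkv to Igkc was 0.845 ± 0.038 in WT and 0.836 ± 0.012 in PELI2-CKO (SD, n = 3 each), so variable and constant parts differed between libraries together.

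The lambda light chain, the alternative to kappa, did not show a difference of this size. The 3 Iglv rows summed to 560 ± 68.4 FPKM in WT and 594 ± 47.5 in PELI2-CKO, and the rows Iglc1, Iglc2 and Iglc3 to 667 ± 39.1 and 673 ± 42.7 (SD, n = 3 each). The ratio of Igkc to Iglc was 7.41 ± 1.72 in WT and 10.7 ± 1.99 in PELI2-CKO (SD, n = 3 each), and these groups overlapped. The plasma cell list moved with the Igkv sum: its 12 genes summed to 1701, 2745 and 2681 FPKM in WT and 4511, 4058 and 2702 in PELI2-CKO, with 9 of 12 mean FPKM higher in PELI2-CKO and none at 0. Most of that sum is antibody RNA, with Igha, the IgA constant gene, at 753, 1455 and 1230 FPKM in WT and 2390, 2053 and 1334 in PELI2-CKO. The other genes of the list went both ways. Sdc1, Irf4 and Mzb1 had the lower mean in PELI2-CKO, and Xbp1, Prdm1 and Tnfrsf17 the higher one. Sdc1, the plasma cell surface marker CD138, was at 24.3, 20.5 and 20.5 FPKM in WT and 19.2, 18.8 and 16.0 in PELI2-CKO. Xbp1 was at 50.6, 56.2 and 60.4 FPKM in WT and 77.7, 70.9 and 67.4 in PELI2-CKO. The groups did not overlap for Sdc1 or for Xbp1. The part of plasma cells in the Igkv values was not tested.

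**Figure D2:**
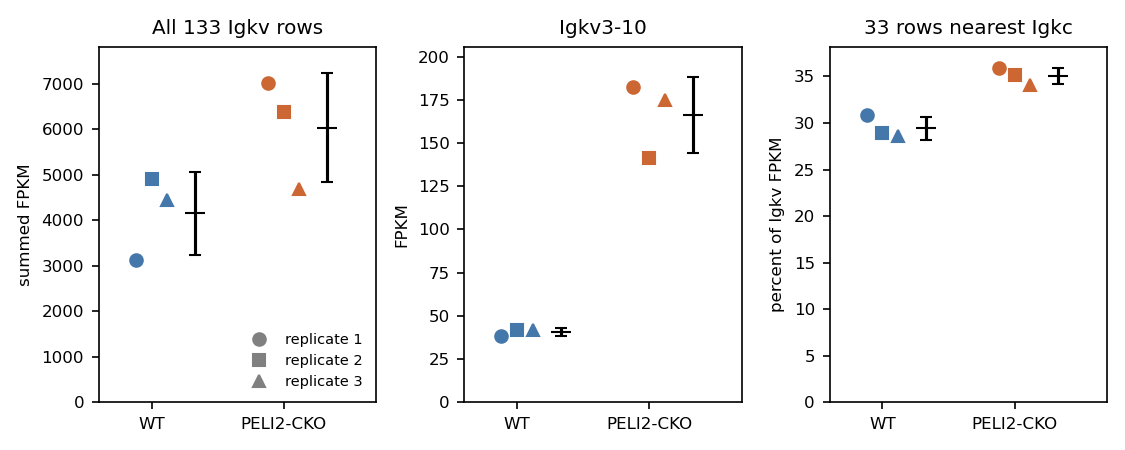
The panels show the summed FPKM of all 133 Igkv rows, the FPKM of Igkv3-10, and the percent of the Igkv sum held by the 33 rows nearest Igkc, with 1 point per library, its shape giving the replicate number, and bars for mean ± SD (n = 3). The sums overlap between genotypes, whereas Igkv3-10 (38.3 to 42.0 against 141 to 183 FPKM) and the nearest rows (28.6% to 30.8% against 34.1% to 35.9%) do not.

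The second comparison was segment by segment. Of 133 rows, 105 reached 1 FPKM in at least 3 libraries and were tested, 93 genes and 12 pseudogenes, within a fit of all 12953 genes that pass this filter. The 28 rows below the filter had a mean over the 6 libraries of at most 2.06 FPKM, the highest being Igkv3-9. Igkv3-10 rose in PELI2-CKO and no segment fell at an adjusted p under 0.05 (limma), where 0.0232% of all genes tested were called higher and 0 lower. Without adjustment, p was under 0.05 for 23 segments higher in PELI2-CKO (21.9%, against 9.2% of all genes) and for 9 lower (8.57%, against 8.88%). The first count was 14 without PELI2-CKO replicate 1, without replicate 2 or with the pair averaged into 1, 42 without PELI2-CKO replicate 3 and 35 without WT replicate 2. The second was 2 without WT replicate 1, 5 without WT replicate 2 and 8 with the pair averaged. These counts therefore rest on single libraries. The groups did not overlap for 16 segments higher in PELI2-CKO (15.2%, against 11.5% of all genes) and for 8 lower (7.62%, against 14.3%). Both kinds of count include segments that passed the filter on low values through the libraries of 1 genotype alone. The tests of such segments are not given below, so the counts are no result on their own.

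The mean of log2(FPKM + 1), on which segments are counted as higher or lower from here on, was higher in PELI2-CKO for 73 of the 105 tested segments (69.5%, against 46.4% of all genes), with a median log2 fold change of 0.34 against -0.01 over all genes, but with each library's Igkv FPKM rescaled to the same Igkv sum it was higher for 42 and lower for 63, with a median of -0.18. With the pair averaged into 1 it was higher for 66 and lower for 38 of 104 tested segments, the median being 0.23. With no averaging, the median was 0.21 without PELI2-CKO replicate 1 and 0.56 without replicate 3. As shares of the Igkv sum, 9 of the 105 segments were higher and 20 lower without overlap. Over all genes 11.5% were higher and 14.3% lower without overlap in FPKM, so these counts are no result on their own. Shares are also tied to each other by their common sum. The split of directions thus turned with the scaling, and the Igkv sum itself overlapped between genotypes.

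The segments were also divided by level and by annotation. Of the 79 with a mean of 5 FPKM or more, all of them variable genes, 67 had a higher mean in PELI2-CKO and 12 a lower one, with a median log2 fold change of 0.53. Of the 26 below 5 FPKM, 6 had a higher and 20 a lower mean, with a median of -0.25. Among the latter are the 12 tested pseudogenes, 2 with a higher and 10 with a lower mean, and 14 variable genes, 4 higher and 10 lower. All 34 pseudogenes together summed to 40.8, 28.8 and 26.5 FPKM in WT and to 25.6, 24.0 and 18.5 in PELI2-CKO, a direction opposite to that of the Igkv sum, with no overlap between genotypes. Pseudogenes cannot give a working light chain. Their RNA can come from unjoined or out-of-frame transcripts, which gene-level values do not tell apart, and its origin here was not tested.

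Igkv3-10 (ENSMUSG00000076596, plus strand, 70572633 to 70573230, exons 70572633 to 70572681 and 70572921 to 70573230) lies 153 kb from Igkc. It stood at 38.3, 42.0 and 41.9 FPKM in WT and at 183, 141 and 175 in PELI2-CKO. Every PELI2-CKO library was far above the highest WT library, replicate 3 included, which was low for many other segments. The log2 fold change was 1.99 ± 0.10 (SE, limma adjusted p = 0.00278), with 244 to 258 reads in WT libraries and 860 to 1182 in PELI2-CKO libraries. It was 2.02 (limma adjusted p = 0.00368) with PELI2-CKO replicates 1 and 2 averaged into 1. When the Igkv FPKM were rescaled to 1 common sum, the log2 fold change was 1.46 and the call was lost (limma adjusted p = 0.111). As a share of the Igkv sum it held 1.22%, 0.857% and 0.944% in WT and 2.60%, 2.21% and 3.72% in PELI2-CKO.

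Its neighbours did not follow it in every library. Igkv3-12, on the far side, stood at 27.0, 44.9 and 48.6 FPKM in WT and at 95.5, 73.0 and 30.1 in PELI2-CKO, so replicate 3 was within the WT range (limma adjusted p = 0.497). The pseudogenes Igkv3-11 and Igkv3-8 next to it stayed at or below 0.469 FPKM in every library. Igkv3-9, on the near side, was at 0.629, 0.168 and 0.484 FPKM in WT and at 4.77, 5.72 and 0.617 in PELI2-CKO, high in the similar pair alone. Igkv3-5, the closest relative by sequence, stood at 12.9, 26.0 and 24.9 FPKM in WT and 73.0, 92.4 and 28.0 in PELI2-CKO. The groups did not overlap for Igkv3-5, but replicate 3 lay just above the highest WT library, 28.0 against 26.0 FPKM (limma adjusted p = 0.213).

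The 3 rows of the whole table with the pattern most like Igkv3-10, by Pearson r of log2(FPKM + 1) over the 6 libraries, were Gm26891 (r = 0.999), Zfp385a (r = 0.997) and Gm20627 (r = 0.995). Gm26891 and Gm20627 had 0 FPKM in all WT libraries and at most 0.184 FPKM in PELI2-CKO, and Zfp385a stood at 11.7 to 12.1 and at 14.6 to 15.2 FPKM. Among tested Igkv segments the most like it were Igkv6-15 (r = 0.954), Igkv5-45 (r = 0.919) and Igkv10-94 (r = 0.912).

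No other segment passed the threshold, and the values of those with the smallest p follow. Igkv6-15, 84.2% of whose 50-base stretches are its own, stood at 119, 165 and 149 FPKM in WT and at 332, 279 and 256 in PELI2-CKO, a log2 fold change of 1.0 ± 0.15 (SE, limma adjusted p = 0.111). The lowest PELI2-CKO library was well above the highest WT library. Igkv10-94 stood at 39.7, 64.7 and 66.7 FPKM in WT and at 125, 100 and 105 in PELI2-CKO (limma adjusted p = 0.142). Its near copy Igkv10-95 was at 15.6, 7.63 and 8.35 FPKM in WT and 8.27, 8.62 and 8.62 in PELI2-CKO, where the groups overlapped. Igkv5-45 stood at 11.4 ± 2.02 FPKM in WT and 19.6 ± 2.08 in PELI2-CKO, and Igkv13-84 at 18.7 ± 3.90 and 30.6 ± 2.12 (SD, n = 3 each). Those groups also did not overlap (limma adjusted p = 0.142 for each).

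In several segments the similar pair was high and replicate 3 intermediate. Igkv4-62 stood at 0.319, 0.170 and 0.328 FPKM in WT, 0.903 to 1.82 reads, and at 18.1, 13.9 and 3.13 FPKM in PELI2-CKO. It passed the filter on low values through the PELI2-CKO libraries alone, so its test is not given, and replicate 3 lay far below the other PELI2-CKO libraries. Igkv4-63 next to it stood at 9.46, 8.89 and 6.92 FPKM in WT and at 47.7, 41.5 and 17 in PELI2-CKO (limma adjusted p = 0.142). Igkv3-2, the segment next to the last before Igkc, stood at 57.9, 60.6 and 69.2 FPKM in WT and at 189, 157 and 90.2 in PELI2-CKO (limma adjusted p = 0.147). Without PELI2-CKO replicate 3, Igkv4-63 and Igkv3-2 passed the threshold (limma adjusted p = 0.0128 and 0.0353), with a PELI2-CKO group made of the similar pair alone, whose spread is small. Igkv4-70 passed the threshold without WT replicate 3. Igkv2-109, whose groups overlapped with all libraries kept (limma adjusted p = 0.568), passed it only without WT replicate 2, its highest library at 93.3 FPKM.

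On the lower side, the segment with the smallest p was the pseudogene Igkv4-73, at 4.89, 3.53 and 3.40 FPKM in WT and 1.39, 1.64 and 1.39 in PELI2-CKO (limma adjusted p = 0.0908). Further pseudogenes without overlap, Igkv12-47 and Igkv2-116, were at 2.12 ± 0.459 and 2.84 ± 0.299 FPKM in WT and at 0.640 ± 0.339 and 1.88 ± 0.458 in PELI2-CKO (SD, n = 3 each). Igkv2-112, a variable gene far from Igkc, stood at 47.1, 25.2 and 32.4 FPKM in WT and 24.3, 20.0 and 14.4 in PELI2-CKO (limma adjusted p = 0.216). Its highest PELI2-CKO value was close to its lowest WT value. Igkv1-122 stood at 19.8 ± 1.10 FPKM in WT and 14.1 ± 4.12 in PELI2-CKO, and Igkv9-129 at 8.02 ± 0.135 and 5.15 ± 2.0 (SD, n = 3 each). Igkv4-71 and Igkv8-34 stood at 1.63 ± 0.813 and 3.76 ± 0.492 FPKM in WT and at 0.472 ± 0.308 and 2.52 ± 0.767 in PELI2-CKO (SD, n = 3 each). Igkv12-47 and Igkv4-71 passed the filter on low values through the WT libraries alone, so only their values are given. Adjusted p of the others on this side ran from 0.0908 to 0.249 (limma).

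**Figure D3:**
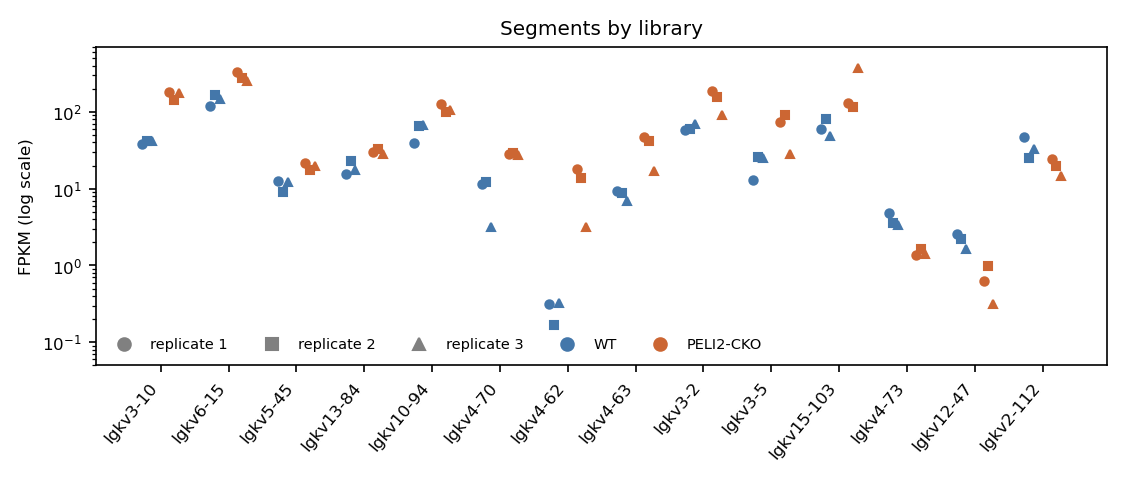
FPKM on a log scale of 14 segments, with 1 point per library, blue for WT and orange for PELI2-CKO, and the shape giving the replicate number. Igkv3-10 and Igkv6-15 separate with all 3 libraries of each genotype close together, Igkv4-62 and Igkv4-63 have PELI2-CKO replicate 3 (3.13 and 17 FPKM) below the other PELI2-CKO libraries, and Igkv15-103 has it (370 FPKM) above them.

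The 8 segments with the highest mean over the libraries were Igkv1-117, Igkv10-96, Igkv6-15, Igkv1-135, Igkv6-23, Igkv1-110, Igkv15-103 and Igkv14-111. Of these only Igkv6-15 and Igkv15-103 had groups that did not overlap. Igkv1-117 held the largest share in each WT library, 5.92%, 8.07% and 7.14%. In PELI2-CKO replicates 1 and 2 the largest share was that of Igkv10-96, 6.15% and 5.81%, and in replicate 3 that of Igkv15-103, 7.88%. In FPKM, Igkv1-117 stood at 299 ± 106 in WT and 327 ± 8.57 in PELI2-CKO (SD, n = 3 each). Igkv10-96 stood at 209 ± 70.9 FPKM in WT and 356 ± 84.6 in PELI2-CKO (SD, n = 3 each), with overlap. Igkv1-135, Igkv1-110, Igkv6-23 and Igkv14-111 had means of 171, 171, 121 and 114 FPKM in WT and of 172, 148, 221 and 154 in PELI2-CKO, and the groups overlapped for each.

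Igkv15-103 was at 60.5, 81.8 and 49.0 FPKM in WT and at 130, 117 and 370 in PELI2-CKO (limma adjusted p = 0.189). PELI2-CKO replicate 3 was 2 or more times any other library. By a rule chosen after the values were seen, 8 tested segments had 1 library at 2 or more times the next highest. For Igkv1-132 and Igkv4-77 it was WT replicate 1, at 5.77 and 8.18 FPKM. For Igkv4-69 it was WT replicate 2 at 35.1 FPKM, against 5.51 to 9.52 elsewhere. For Igkv14-100, Igkv1-99 and Igkv4-81 it was WT replicate 3, which in the first was at 124 FPKM and in the second at 61.8. For Igkv15-103 and Igkv3-3 it was PELI2-CKO replicate 3, at 370 and 8.02 FPKM. Such single-library peaks thus occurred in both genotypes, and none was in PELI2-CKO replicates 1 or 2, where each has the other at a like level.

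The third comparison was by position. The 133 rows were ordered along chromosome 6 and divided into 4 runs of 33 or 34. The run nearest Igkc (70058632 to 70704177) held 30.8%, 28.9% and 28.6% of the Igkv sum in WT and 35.9%, 35.2% and 34.1% in PELI2-CKO. The means were 29.4% ± 1.23 and 35.1% ± 0.897 (SD, n = 3 each), a difference of 5.62 percentage points with no overlap between genotypes. It was 5.38 points with PELI2-CKO replicates 1 and 2 averaged into 1, and 4.42 points without Igkv3-10. All 13 rows of subgroup Igkv3 lie in this run, and the share of that subgroup alone differed by 3.83 points. Most of the difference thus lay in 1 subgroup, and position and subgroup cannot be told apart here. PELI2-CKO replicate 3, which differed from the pair in many segments, was close to the pair in the share of the run.

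The run farthest from Igkc (67555497 to 68437925) held 36.0%, 35.1% and 31.2% in WT and 25.5%, 26.9% and 33.4% in PELI2-CKO. Here replicate 3 lay within the WT range, and Igkv15-103 is the last row of this run. Most rows of subgroup Igkv1 lie in this run. The share of that subgroup differed by -5.31 percentage points, against -5.51 for the run. The runs between held 17.9% ± 1.96 and 18.6% ± 1.6 in WT and 16.8% ± 1.0 and 19.5% ± 2.29 in PELI2-CKO (SD, n = 3 each), with overlap in both.

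Segment by segment, the farthest run was split, 14 with a higher and 13 with a lower mean in PELI2-CKO (median log2 fold change 0.00). In the next run 15 were higher and 9 lower (median 0.28), in the following one 22 and 6 (median 0.64), and in the run nearest Igkc 22 and 4 (median 0.63). From far to near, 1, 3, 5 and 7 segments were higher without overlap and 4, 2, 2 and 0 were lower without overlap, of 27, 24, 28 and 26 tested. Over all genes 11.5% were higher and 14.3% lower without overlap, so the counts of several runs lie near that share. The run counts also include segments that passed the filter on low values through 1 genotype alone. Of the 3 tested segments farthest from Igkc, Igkv1-135, Igkv1-133 and Igkv1-132, the log2 fold changes were 0.00, 0.21 and -0.09, and the groups overlapped. Of the 3 nearest, Igkv3-3, Igkv3-2 and Igkv3-1, they were 0.67, 1.14 and -0.21, and only Igkv3-2 was without overlap. The nearest segment of all, Igkv3-1, stood at 10.2, 17.9 and 28.7 FPKM in WT and 11.1, 13.9 and 21.7 in PELI2-CKO, with overlap.

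**Figure D4:**
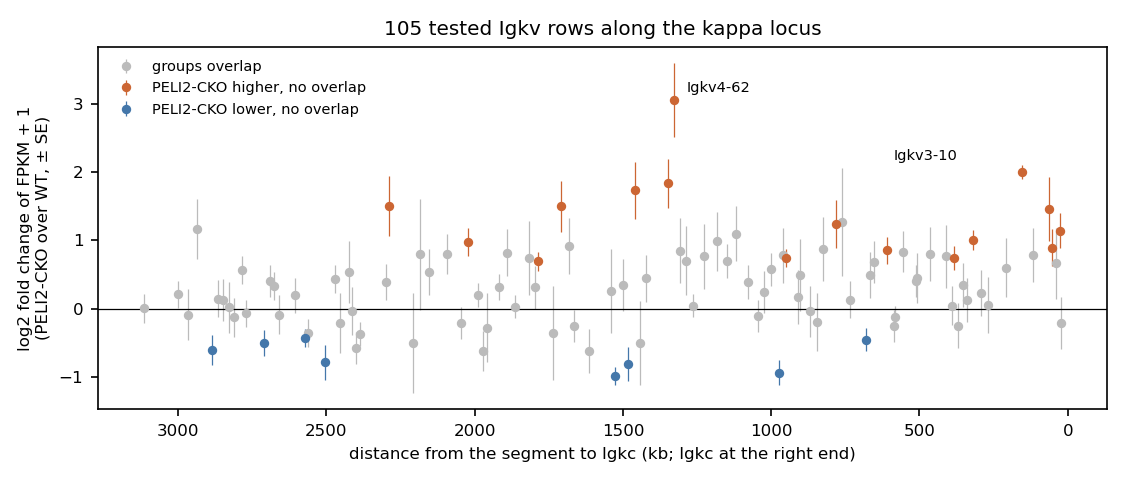
Log2 fold change (PELI2-CKO over WT, on the log2(FPKM + 1) scale, bars are SE) of the 105 tested segments by distance from Igkc in kb, with Igkc at the right end; orange and blue points are segments whose groups do not overlap, higher or lower in PELI2-CKO. The 7 orange points of the nearest run stand beside no blue one, and 4 of the 8 blue points lie in the farthest run. Coloured points include segments that passed the filter on low values through 1 genotype alone, whose tests are not given.

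Orientation relative to Igkc decides whether joining deletes or inverts DNA. Of the 64 tested minus-strand segments 48 had a higher mean in PELI2-CKO (median log2 fold change 0.45), and of the 41 on the plus strand 25 (median 0.20). The minus-strand segments held 53.4% ± 1.10 of the Igkv sum in WT and 56.6% ± 3.17 in PELI2-CKO (SD, n = 3 each), and the groups overlapped.

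The evenness with which segments share the sum was given by the effective number, the exponential of the Shannon entropy of the shares. It was 61.6, 55.5 and 55.6 segments in WT and 57.5, 58.3 and 51.7 in PELI2-CKO. The groups overlapped, and the difference of -1.77 turned to 0.23 without WT replicate 1 and to 0.30 without PELI2-CKO replicate 3.

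The fourth comparison was by subgroup, as a share of the Igkv sum. Subgroup Igkv1, with 11 members, held 16.8%, 17.3% and 18.5% in WT and 11.7%, 12.3% and 12.6% in PELI2-CKO. Its summed FPKM was nearly equal, 732 ± 177 in WT and 734 ± 123 in PELI2-CKO (SD, n = 3 each), so the lower share stood beside a higher sum of the other subgroups. Of its members Igkv1-135, Igkv1-122, Igkv1-110 and Igkv1-88 had lower shares without overlap.

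Subgroup Igkv3, with 13 members, 8 of them tested, held 7.20%, 6.39% and 7.62% in WT and 11.6%, 10.9% and 10.2% in PELI2-CKO. Its difference of 3.83 percentage points was 2.15 without Igkv3-10. Its summed FPKM was 293 ± 58.9 in WT and 663 ± 172 in PELI2-CKO (SD, n = 3 each), without overlap. Besides Igkv3-10, Igkv3-5 and Igkv3-2 had higher shares without overlap, while Igkv3-1 had a mean share of 0.446% in WT and 0.279% in PELI2-CKO. Members of this subgroup lie together in the run nearest Igkc and share sequence, so they are not independent of each other or of the positional result.

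Subgroup Igkv10, with 3 members, held 6.56% ± 0.532 in WT and 7.87% ± 0.310 in PELI2-CKO (SD, n = 3 each), without overlap. Subgroups Igkv14 and Igkv19 held less without overlap, 4.95% ± 1.34 and 2.0% ± 0.101 in WT and 3.70% ± 0.0385 and 1.57% ± 0.0404 in PELI2-CKO (SD, n = 3 each). In Igkv14 the WT libraries ranged from 4.11% to 6.49%, the highest being WT replicate 3, the library of the Igkv14-100 peak. In all, 5 of 20 subgroups had shares without overlap, 2 higher and 3 lower, and the number was 5 with PELI2-CKO replicates 1 and 2 averaged into 1. The count is near the share of all genes without overlap, 11.5% higher and 14.3% lower, and is no result on its own. It was 10 without PELI2-CKO replicate 3, where fewer libraries make overlap less frequent. By summed FPKM 18 of 20 subgroups had a higher mean in PELI2-CKO, 5 of them (Igkv3, Igkv8, Igkv10, Igkv13 and Igkv15) without overlap. The whole Igkv sum also had a higher mean in PELI2-CKO, with overlap, so these counts are no result on their own. In Igkv13 the highest WT library was at 57.27 FPKM and the lowest PELI2-CKO library at 57.34. The Igkv15 sum was nearly all from 1 segment, with a peak in PELI2-CKO replicate 3.

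The largest subgroup by members, Igkv4 with 32, held 12.8% ± 0.460 in WT and 13.0% ± 2.28 in PELI2-CKO (SD, n = 3 each), where replicates 1 and 2 were at 14.5% and 14.2% and replicate 3 at 10.4%. Igkv6 and Igkv8, with 9 and 11 members, held 13.6% ± 1.99 and 8.67% ± 0.957 in WT and 14.9% ± 0.724 and 9.13% ± 0.612 in PELI2-CKO (SD, n = 3 each), with overlap. Igkv15 held 1.93%, 1.67% and 1.10% in WT and 1.87%, 1.84% and 7.88% in PELI2-CKO, nearly all of it Igkv15-103.

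**Figure D5:**
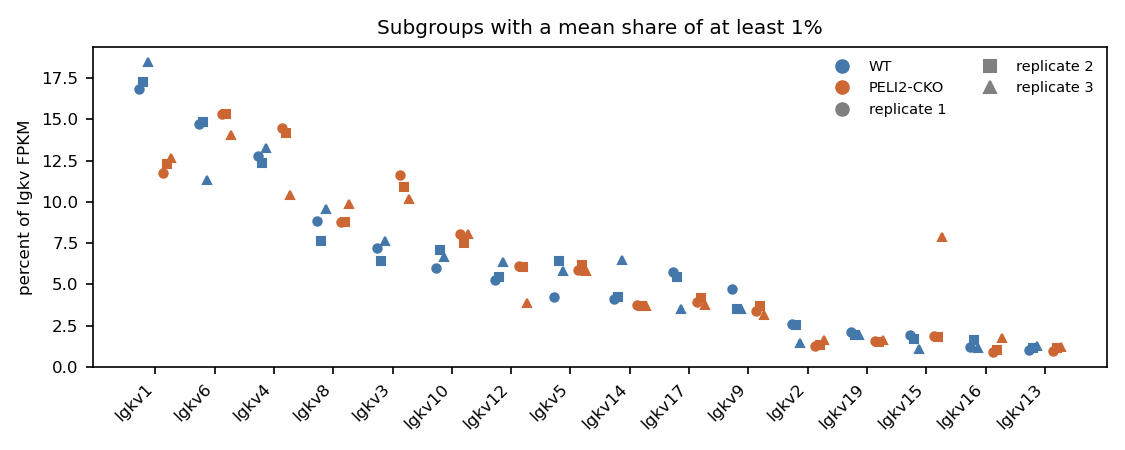
Percent of the summed Igkv FPKM held by each subgroup with a mean share of at least 1%, with 1 point per library, blue for WT and orange for PELI2-CKO, and the shape giving the replicate number. Igkv1 is lower in all PELI2-CKO libraries (11.7% to 12.6% against 16.8% to 18.5%), Igkv3 is higher (10.2% to 11.6% against 6.39% to 7.62%), and Igkv15 is high in PELI2-CKO replicate 3 alone.

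The genes that join and transcribe light chains were read from a list of 39, of which 31 were used; Igkj1 to Igkj5 and Iglj1 to Iglj3 were not analysed here. None passed the threshold in either direction (limma, 0 called). An unadjusted p under 0.05 was reached by 3 that were higher (9.2% of all genes were) and 12 that were lower (8.88% of all genes). With a library left out these counts ran from 1 (without PELI2-CKO replicate 1) to 4 (without replicate 3) and from 7 (without PELI2-CKO replicate 3) to 14 (without WT replicate 3). They were 0 and 19 after scaling to a common total, and 2 and 15 after quantile normalization. The mean of log2(FPKM + 1) was higher for 8 and lower for 23, against 46.4% higher over all genes, with a median log2 fold change of -0.15, and for 4 and 27 after scaling to a common total or by quantiles. Igkc had a log2 fold change of 0.56 ± 0.23 (SE, limma adjusted p = 0.27), and of 0.0762 after quantile normalization (limma adjusted p = 0.824). Quantile normalization gives equal ranks equal values in all libraries, so it can remove a difference in a row with very high values. Rag1, the recombinase subunit that cuts DNA, stood at 119, 82.4 and 70.9 FPKM in WT and 59.8, 68.3 and 49.1 in PELI2-CKO, without overlap (limma adjusted p = 0.228). Rag2, its partner, stood at 6.40 ± 1.4 and 4.86 ± 0.507 FPKM (SD, n = 3 each), with overlap. Igll1 and Vpreb1, the surrogate light chain that pairs with the heavy chain before kappa is joined, stood at 158 ± 36.9 and 135 ± 40.5 FPKM in WT and at 109 ± 17.1 and 97.1 ± 13.9 in PELI2-CKO (SD, n = 3 each), with overlap. The 8 pro-B and pre-B markers, which include these 4 genes, summed to 426 to 631 FPKM in WT and to 365 to 413 in PELI2-CKO. Of these 8, Kit, a receptor of early progenitors, went the other way without overlap, at 2.57, 3.11 and 3.06 FPKM in WT and 4.17, 3.55 and 3.97 in PELI2-CKO (limma adjusted p = 0.172). The part of cell composition in these values was not tested.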

How the data were processed

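RNA was measured in 6 libraries of mouse bone marrow B220+ cells, grouped by genotype and replicate number as titled. Per the labels' protocols, oligo(dT)-selected RNA was read as single-end 50-base reads on DNBSEQ. RSEM 1.2.12, HISAT2 2.0.4, DESeq2 1.4.5 and Bowtie2 2.2.5 are listed, per the submitters' processing notes, with GRCm38.p6 and no roles. Strand use is not stated. The authors deposited FPKM per gene, which are not counts. Depth was recovered from low values: 99.2% to 99.5% of 3698 to 4089 genes with 1 transcript gave whole reads within 0.03 reads, below 6 reads.

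The test used log2(FPKM + 1) of genes that reach 1 FPKM in at least 3 libraries. It understates changes of low genes. It was run with limma 3.58.1 (R 4.3.3; lmFit, eBayes with trend, two-sided, Benjamini-Hochberg over 12953 genes, adjusted p under 0.05) and checked on simulated data. Sums, shares, subgroups and runs are given as values without a p, since 3 against 3 libraries cannot go below 0.1 in an exact permutation test and members were chosen with results known. Uniqueness was computed from 50-base stretches of the GENCODE M21 transcripts.

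The members, lists and tests were chosen with earlier results of these data known. Named segments were Igkv3-10 and any other past the threshold; the 8 highest; the 8 in each direction with the smallest p among groups that do not overlap; the 3 nearest to and the 3 farthest from Igkc; the neighbours of Igkv3-10; Igkc, Rag1, Rag2, Igll1 and Vpreb1; and the 3 rows most like Igkv3-10. Further segments were named after their values were seen, for their sequence, for a single-library peak, for a call with a library left out, or as members of a subgroup. Marker lists covered the B lineage, plasma, pro-B and pre-B cells, granulocytes, erythroid cells, plasmacytoid dendritic cells, and T and NK cells. The summed level of the B lineage list is not reported here. Alternatives were other pseudocounts, filters, scalings, models and cuts of the locus, the replicate number as a block, each library left out, and, added after the data were seen, PELI2-CKO replicates 1 and 2 averaged into 1.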

Additional observations from a re-analysis of the deposited data

How the results depend on the processing

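The call of Igkv3-10 was made in 17 of the 18 alternative fits run. With the Igkv FPKM rescaled to a common sum no segment was called (0), and with each library left out in turn 1 to 3 were. In that rescaled fit its log2 fold change was 1.46. With the replicate number as a block 1 segment was called, Igkv3-10, at a limma adjusted p of 0.0472. Same-numbered libraries had deviations that correlated at 0.101, 0.036 and 0.090 over all genes, against -0.107 to 4.5e-05 for differently numbered ones. Over tested Igkv segments the same-numbered values were -0.176, 0.078 and -0.115, and the others ran from -0.139 to 0.183. Whether the numbers pair the libraries is not stated in the labels and was not tested. The block was not run for subgroup shares, which have no test. The block gave a ratio of 1.46 for the Igkv sum, which ran from 1.29 to 1.61 with a library left out. The difference in the share of the run nearest Igkc was 4.42 points without Igkv3-10 and 5.17 to 6.32 with a library left out. The number of subgroups without overlap was 5 to 10 with a library left out, 10 without PELI2-CKO replicate 3, and leaving out a library can only keep or raise this number.

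Of the log2 fold changes of 33 named genes under the alternatives, 18 changed sign, those of Igkv14-111, Igkv3-1 and 5 segments of subgroup Igkv1, and the cause was not tested. After rescaling to a common Igkv sum, Igkv14-111 was at -0.10, Igkv1-117 at -0.34, Igkv1-133 at -0.30 and Igkv1-135 at -0.53. Igkv1-135 was also at -0.0696 with a common total, -0.0581 with quantile normalization and -0.0903 with PELI2-CKO replicates 1 and 2 averaged into 1, and Igkv1-132 was at 0.0906 with library weights. With each library left out in turn, Igkv1-135 ran from -0.15 to 0.20, Igkv1-110 from -0.56 to 0.20, Igkv1-117 from -0.11 to 0.43, Igkv1-132 from -0.41 to 0.37 and Igkv3-1 from -0.57 to 0.13. Igkc was at 0.0762 with quantile normalization, against 0.40 to 0.74 with a library left out. Since quantile normalization can itself remove a difference in a row with very high values, the 0.0762 cannot decide whether Igkc differed. With 3 libraries per genotype, a similar pair among them, and reads shared between segments, differences smaller than the spread between libraries cannot be shown.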

Other observations

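T and NK cell markers, which do not use kappa chains, summed to 16.5 to 21 FPKM in WT and 16.5 to 22 in PELI2-CKO, so their level did not separate the genotypes.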
